A study of Neurospora crassa with 6 samples.

Results

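The photoreceptor and circadian clock genes of *Neurospora crassa* described here are 10 of the 9872 entries of the deposited expression table, taken by locus. They are *wc-1* (NCU02356), *wc-2* (NCU00902), *vvd* (NCU03967), *frq* (NCU02265), *frh* (NCU03363), *cry* (NCU00582), *phr* (NCU08626), *phy-1* (NCU04834), *phy-2* (NCU05790) and *nop-1* (NCU10055). All 10 had reads in all 6 libraries.

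The study asked how MAP kinases MAK-1, of the cell wall integrity pathway, and MAK-2, of the pheromone response pathway, act on the transcriptome when this filamentous fungus begins to form protoperithecia, the female structures that become fruiting bodies after mating. The strains were a wild type and deletion mutants of *mak-1* and *mak-2*, all obtained from a stock centre, with 1 deletion strain of mating type a per kinase. The mating type of the sequenced wild type is not given in the sources used here. Such stock strains can carry mutations beside the deletion. Vegetative hyphae were shaken in liquid Vogel's medium for 22 h at 28°C, and their light regime is not given in the sources used here. Hyphae of the protoperithecial stage grew for 3.5 days at 25°C in the dark, on cellophane over solid crossing medium containing 0.1% sucrose, so stage cannot be told apart from medium, temperature and light in any stage comparison. Each library was made from the mixed RNA of 3 repeats. With 1 library per condition there is no replicate check and no test against the spread between cultures. Strain comparisons at one stage shared the culture conditions that the sources state. Light at handling and harvest is not given in them.

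In the blue light response of this fungus, the GATA factors WC-1 and WC-2 join in the white collar complex, in which WC-1 carries the flavin chromophore and is itself the photoreceptor. The complex also drives *frq* in the dark, and the FRQ protein, held by its partner helicase FRH, inhibits the complex in turn, which closes the negative feedback loop of the clock. Light raises the transcripts of *wc-1*, *vvd*, *frq*, *cry* and *phr* through the white collar complex, and the small photoreceptor VVD then damps the response.

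Values are RPKM, reads scaled for the length of the gene model and the mapped reads per library. The reads behind them were recovered from the steps of the deposited values, and mapped reads lay between 2602076 and 3668046 per library. The 10 genes had from 1 read (*phy-2*, vegetative Δ*mak-2*) to 5002 reads (*frq*, protoperithecial Δ*mak-1*). Intervals given with a ratio were computed from the reads of both libraries (exact, 95%) and cover counting error only. A gene is called raised or lowered, following the study, if its ratio passed 2 or fell short of 0.5, with more than 10 RPKM on at least 1 side. The *mak-2* entry had 0 RPKM in both Δ*mak-2* libraries, against 68.2 to 586 in the other 4. The *mak-1* entry had 6.39 and 6.08 RPKM in the Δ*mak-1* libraries (50 and 52 reads) and at least 40.0 elsewhere. The paper prints 0 RPKM for *mak-1* in both Δ*mak-1* libraries, and the source of this difference was not tested. The protoperithecial markers *poi-2*, *app* and *fsd-1* summed to 2906 RPKM in the protoperithecial wild type but to 80.5 RPKM in Δ*mak-1* and 32.8 RPKM in Δ*mak-2* at that stage, most of it *fsd-1*, with *poi-2* and *app* at no more than 3.84 RPKM there.

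Levels per length spanned a wide range among the 10 genes. *vvd* was the highest in every library, between the 92.0 and 99.3 percentiles of the entries with reads, and *frq* came next in every library. The *vvd* level was 11 times that of *frq* in vegetative wild type and 1.74 times in protoperithecial wild type. *frh*, *phy-1* and *phy-2* stayed below 10 RPKM in all 6 libraries and could not be called in any comparison.

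**Figure D1:**
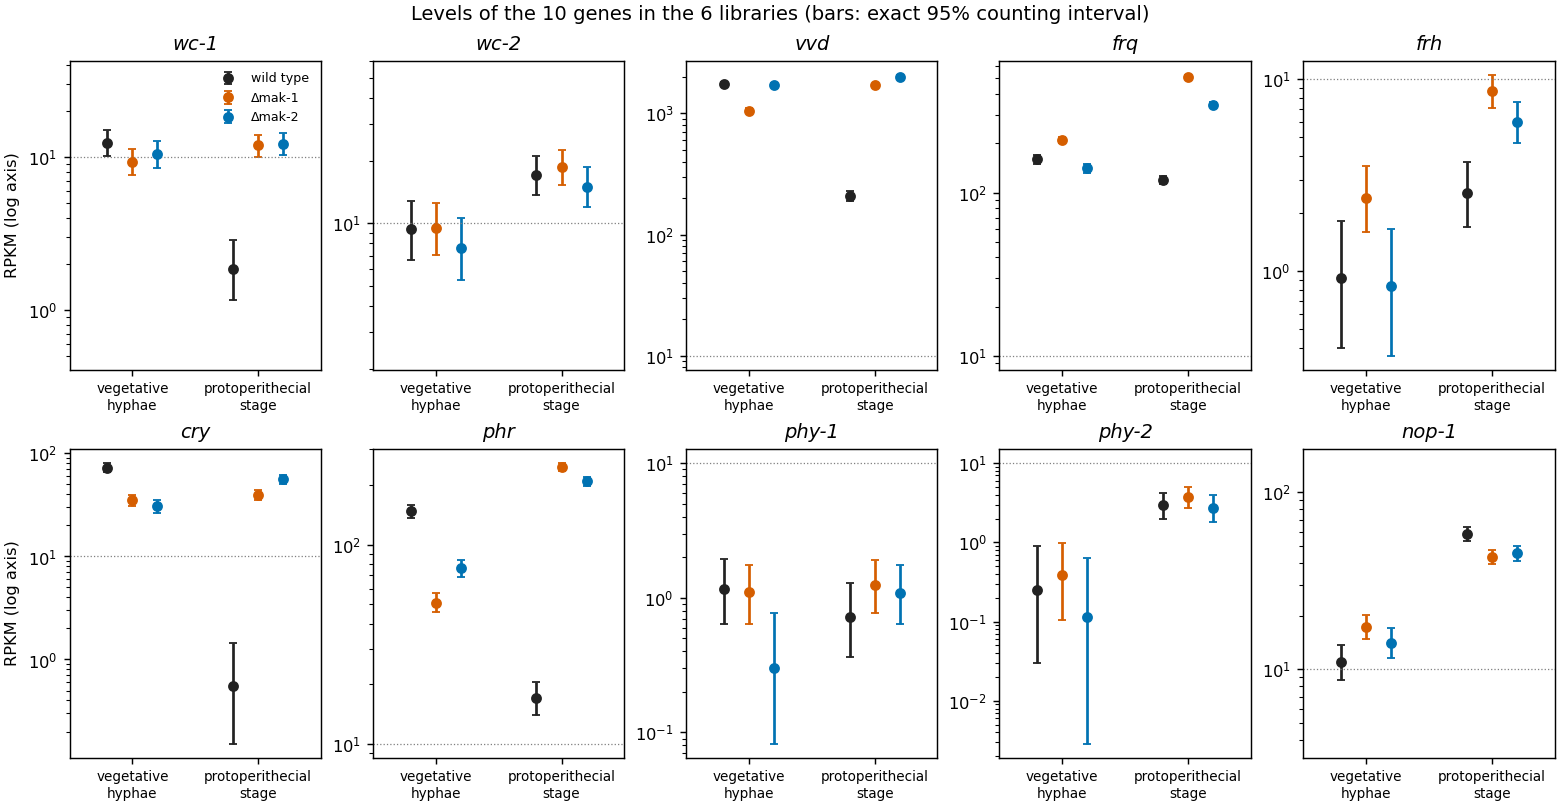
RPKM (log axis, a separate scale in each panel) of the 10 genes in vegetative hyphae and at the protoperithecial stage, with black, orange and blue points for wild type, Δ*mak-1* and Δ*mak-2*, bars for the exact 95% counting interval and a dotted line at 10 RPKM. The protoperithecial wild type is the lowest point for *wc-1*, *vvd*, *frq*, *cry* and *phr*. In all 3 strains *wc-2*, *frh*, *phy-2* and *nop-1* are higher at the protoperithecial stage.

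The white collar genes did not share a pattern. The level of *wc-1*, which encodes the blue light receptor, was 12.4 RPKM in vegetative wild type, 9.38 in vegetative Δ*mak-1*, 10.5 in vegetative Δ*mak-2*, 1.87 in protoperithecial wild type, 12 in protoperithecial Δ*mak-1* and 12.3 in protoperithecial Δ*mak-2*. The other 5 libraries thus lay close together, with each neighbour in the order within counting error of the next, although vegetative Δ*mak-1* was at 0.754 of vegetative wild type (interval 0.572 to 0.993). The protoperithecial wild type stood below them with 21 reads. In the wild type *wc-1* was lowered between stages to 0.150 of its vegetative level (0.0896 to 0.242). At the protoperithecial stage it was 6.39-fold higher in Δ*mak-1* (4.03 to 10.6) and 6.57-fold higher in Δ*mak-2* (4.14 to 10.9). Because its level lay near the 10 RPKM minimum, *wc-1* dropped out of the raised genes when libraries were scaled by the median of ratios, although the ratios themselves were 5.94 and 6.49.

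*wc-2*, the partner of *wc-1* in the complex, stood at 9.37, 9.50 and 7.64 RPKM in vegetative wild type, Δ*mak-1* and Δ*mak-2*, and at 17.1, 18.6 and 15.0 RPKM in the same strains at the protoperithecial stage. It was higher at the protoperithecial stage in each strain and differed little between strains at one stage, with intervals that held 1 in all 4 comparisons of a mutant with the wild type. The stage ratios of 1.82, 1.96 and 1.97 were all under the 2-fold line. Scaled by the median of ratios they came to 1.04, 1.36 and 1.17. Per length, *wc-1* was at 1.33 times *wc-2* in vegetative wild type but at 0.110 times (0.0649 to 0.178) in protoperithecial wild type. In the protoperithecial mutants the quotient was 0.644 and 0.820.

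*vvd* encodes the small photoreceptor that holds back the white collar complex in light. Its level was 1753 RPKM in vegetative wild type, 1056 in vegetative Δ*mak-1*, 1718 in vegetative Δ*mak-2*, 208 in protoperithecial wild type, 1708 in protoperithecial Δ*mak-1* and 2008 in protoperithecial Δ*mak-2*. The protoperithecial wild type was again the lowest, and the next library was 5.07 times higher. In the wild type *vvd* was lowered to 0.119 of its vegetative level (0.107 to 0.132). The protoperithecial mutants exceeded the wild type by 8.20-fold in Δ*mak-1* (7.40 to 9.11) and 9.65-fold in Δ*mak-2* (8.71 to 10.7). Neither mutant passed the 2-fold line between its own stages, at 1.62 in Δ*mak-1* and 1.17 in Δ*mak-2*, and the latter was 0.694 with the median of ratios.

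The clock gene *frq* was expressed at 160 RPKM in vegetative wild type, 210 in vegetative Δ*mak-1*, 140 in vegetative Δ*mak-2*, 120 in protoperithecial wild type, 510 in protoperithecial Δ*mak-1* and 346 in protoperithecial Δ*mak-2*. Its lowest library was the same, but by a smaller margin, since vegetative Δ*mak-2* was only 1.17 times higher. The wild-type stage ratio was 0.748 (0.687 to 0.814) and was not called, whereas with the median of ratios it was 0.427 and counted as lowered. Between stages *frq* was raised 2.42-fold in Δ*mak-1* and 2.46-fold in Δ*mak-2*, but the median of ratios gave 1.69 and 1.46, which were not called. Protoperithecial *frq* was raised 4.27-fold in Δ*mak-1* (3.99 to 4.56) and 2.89-fold in Δ*mak-2* (2.70 to 3.11), and Δ*mak-1* exceeded Δ*mak-2* by 1.47-fold (1.41 to 1.54). Whether the libraries kept strand is not given in the sources used here, so reads of *frq* cannot be told apart from reads of its antisense transcript *qrf*.

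*frh*, the helicase gene, was at 0.926, 2.42 and 0.840 RPKM in vegetative wild type, Δ*mak-1* and Δ*mak-2* (8, 27 and 8 reads), and at 2.55, 8.70 and 5.98 RPKM at the protoperithecial stage (28, 106 and 67 reads). Protoperithecial Δ*mak-1* was the highest and protoperithecial Δ*mak-2* the next. The ratio to the wild type at that stage was 3.41 (2.23 to 5.37) in Δ*mak-1* and 2.34 (1.49 to 3.78) in Δ*mak-2*, with all values under the RPKM minimum. Per length *frq* was 46.8 to 173 times as abundant as *frh*.

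Of the 10 genes *cry*, which encodes a cryptochrome of the DASH type, had the widest range over the libraries, at 131-fold. It was at 73.0 RPKM in vegetative wild type, 35.0 in vegetative Δ*mak-1*, 30.7 in vegetative Δ*mak-2*, 0.559 in protoperithecial wild type, 39.2 in protoperithecial Δ*mak-1* and 56.2 in protoperithecial Δ*mak-2*. The protoperithecial wild type held 4 reads of *cry*, against 191 to 412 in the other libraries. Among entries with reads it went from the 84.2 percentile in vegetative wild type to the 3.3 percentile in protoperithecial wild type. The stage ratio in the wild type was 0.00765 (0.00208 to 0.0197). At the protoperithecial stage *cry* was raised 70.2-fold in Δ*mak-1* (27.1 to 259) and 101-fold in Δ*mak-2* (39.0 to 371), with the width of both intervals set by those 4 reads. In vegetative hyphae the direction was the reverse, and *cry* was lowered to 0.480 of the wild type in Δ*mak-1* (0.409 to 0.562) and to 0.421 in Δ*mak-2* (0.353 to 0.501).

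*phr* encodes the photolyase that repairs ultraviolet damage to DNA. It stood at 147 RPKM in vegetative wild type, 51.1 in vegetative Δ*mak-1*, 76.0 in vegetative Δ*mak-2*, 17.0 in protoperithecial wild type, 244 in protoperithecial Δ*mak-1* and 208 in protoperithecial Δ*mak-2*. Every neighbour in this order differed beyond counting error. *phr* was lowered between stages in the wild type, to 0.115 (0.0934 to 0.141), but raised between stages 4.78-fold in Δ*mak-1* (4.25 to 5.39) and 2.74-fold in Δ*mak-2* (2.45 to 3.06). The call in Δ*mak-2* was lost under 3 other scalings, which gave 1.58 to 1.73. Against the wild type, protoperithecial *phr* was raised 14.4-fold in Δ*mak-1* (11.8 to 17.7) and 12.3-fold in Δ*mak-2* (10.1 to 15.1), while vegetative *phr* was at 0.347 in Δ*mak-1* (lowered, 0.304 to 0.396) and 0.517 in Δ*mak-2* (0.457 to 0.583). The *cry* level per length was 0.496 times that of *phr* in vegetative wild type and 0.0329 times in protoperithecial wild type.

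The phytochrome genes, which encode red and far-red light receptors, had at most 3.73 RPKM in any library. *phy-1* lay between 0.303 and 1.24 RPKM, or 4 and 21 reads, and no neighbours in its order differed beyond counting error, although its lowest value, in vegetative Δ*mak-2*, was 0.259 of vegetative wild type (0.0622 to 0.826). *phy-2* was at 0.25, 0.388 and 0.114 RPKM in vegetative wild type, Δ*mak-1* and Δ*mak-2* (2, 4 and 1 reads) and at 2.96, 3.73 and 2.71 RPKM at the protoperithecial stage (30, 42 and 28 reads). The stages did not overlap, and the stage ratio was 11.8 (3.0 to 102) in the wild type, 9.61 (3.49 to 36.9) in Δ*mak-1* and 23.8 (3.94 to 973) in Δ*mak-2*. Within each stage the intervals of *phy-2* between a mutant and the wild type held 1. Per length *phy-2* was at 2.47 to 4.10 times *phy-1* at the protoperithecial stage, with intervals above 1. In the vegetative libraries it was at 0.215 times in the wild type (0.0237 to 0.935), while at 0.354 times in Δ*mak-1* and 0.376 times in Δ*mak-2* the intervals held 1.

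*nop-1* encodes an opsin, a retinal-binding membrane protein. It was at 11 RPKM in vegetative wild type, 17.4 in vegetative Δ*mak-1*, 14.1 in vegetative Δ*mak-2*, 58.3 in protoperithecial wild type, 43.2 in protoperithecial Δ*mak-1* and 45.3 in protoperithecial Δ*mak-2*. All 3 protoperithecial libraries were above all 3 vegetative ones, and *nop-1* was the only one of the 10 genes with its highest value in the protoperithecial wild type. It was raised between stages 5.28-fold in the wild type (4.15 to 6.78), 2.48-fold in Δ*mak-1* (2.06 to 2.99) and 3.21-fold in Δ*mak-2* (2.59 to 3.99). Scaled by the median of ratios these ratios were 3.01, 1.72 and 1.91, so that only the wild type was called. At the protoperithecial stage both mutants were below the wild type without reaching the 2-fold line, at 0.741 (0.651 to 0.844) and 0.778 (0.682 to 0.887). The entry spans 2714 bases where the RefSeq gene spans 2076, and the part of that difference in the values was not tested.

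Counted over the 10 genes, 4 were lowered between stages in the wild type (*wc-1*, *vvd*, *cry* and *phr*), where 7.27% of all entries with reads were lowered, and 1 was raised (*nop-1*), where 32.7% were raised. Less of a transcript in a bulk sample can mean fewer cells that hold it or less of it per cell, and these cannot be told apart. The median ratio of the 10 genes was 0.684 against 1.73 for all entries, and in entries above 10 RPKM the median ratio stood 0.89 above 0 on the log2 scale, so most genes shifted upward with this normalization. Under the median of ratios 15.3% of entries were lowered and 16.2% raised. Relative to that shift the lowered genes were further down, with 0.0859 for *wc-1*, 0.0678 for *vvd*, 0.00437 for *cry* and 0.0658 for *phr* under the median of ratios, and *frq* joined them.

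In the mutants none of the 10 genes was lowered between stages, where 6.73% of all entries were lowered in Δ*mak-1* and 6.49% in Δ*mak-2*. Raised between stages were *frq*, *phr* and *nop-1* in both mutants, where 23.1% of all entries were raised in Δ*mak-1* and 28.5% in Δ*mak-2*. Counts of 0 lowered and 3 raised among 10 genes are near those shares. The median of the 10 ratios was 2.19 in Δ*mak-1* and 2.60 in Δ*mak-2*, against 1.43 and 1.64 for all entries. The median log2 ratio of entries above 10 RPKM was 0.50 in Δ*mak-1* and 0.74 in Δ*mak-2*. With the median of ratios, which lowered 12.1% and raised 14.1% of entries in Δ*mak-1*, and 14.1% and 13.9% in Δ*mak-2*, only *phr* in Δ*mak-1* was still raised.

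**Figure D2:**
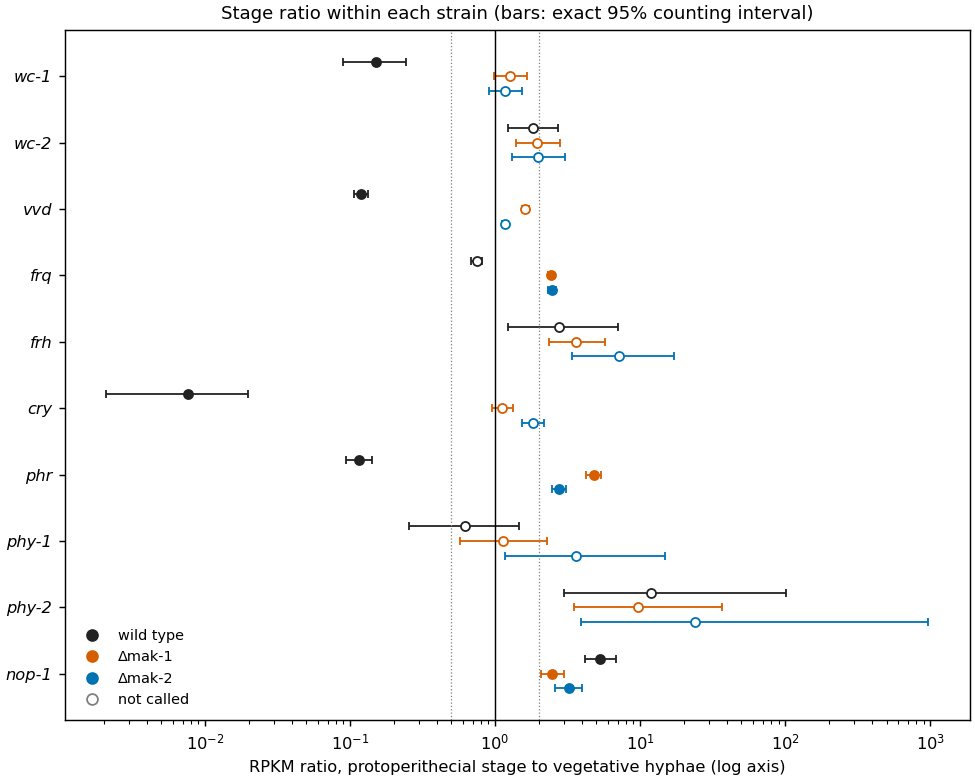
RPKM ratio of the protoperithecial stage to vegetative hyphae (log axis) for each of the 10 genes within wild type (black), Δ*mak-1* (orange) and Δ*mak-2* (blue), with bars for the exact 95% counting interval, dotted lines at 0.5 and 2, and filled points for called genes. The wild-type points of *wc-1*, *vvd*, *cry* and *phr* lie between 0.00765 and 0.150, and no mutant point of these genes is below 1 as plotted, although with the median of ratios *wc-1* and *vvd* in Δ*mak-2* came to 0.698 and 0.694, and *wc-1* and *cry* in Δ*mak-1* to 0.888 and 0.780.

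The stage ratio of a mutant divided by that of the wild type sets the strains side by side. This quotient was 8.47 and 7.81 for *wc-1* in Δ*mak-1* and in Δ*mak-2*, 13.6 and 9.84 for *vvd*, 3.24 and 3.29 for *frq*, 146 and 239 for *cry*, and 41.4 and 23.7 for *phr*. It was 1.08 and 1.08 for *wc-2*, with intervals that held 1, and 0.469 and 0.608 for *nop-1*. Both mutants were divided by the same wild-type libraries. The counting intervals of these quotients are approximate (log-normal). For *wc-1* they were 4.99 to 14.4 and 4.59 to 13.3. For *cry*, with 4 reads in the protoperithecial wild type, they were 53.9 to 397 and 88.0 to 649. Below the RPKM minimum, they held 1 for *frh* and *phy-2* in both mutants and for *phy-1* in Δ*mak-1*. In Δ*mak-2* the quotient of *phy-1* was 5.83 (1.52 to 22.4), with 4 reads in vegetative Δ*mak-2*.

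Between strains at the protoperithecial stage, 5 of the 10 genes (*wc-1*, *vvd*, *frq*, *cry* and *phr*) were raised and 0 lowered in Δ*mak-1*, where 7.84% of all entries were raised and 5.95% lowered. In Δ*mak-2* the calls were the same 5 raised and 0 lowered, where 6.07% of all entries were raised and 7.59% lowered. The median of the 10 ratios was 3.84 in Δ*mak-1* and 2.62 in Δ*mak-2*, against 1.05 and 0.979 for all entries. Both comparisons share the protoperithecial wild-type library, so they do not count as separate observations of it. All 3 other scalings left *vvd*, *frq*, *cry* and *phr* raised in both mutants.

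**Figure D3:**
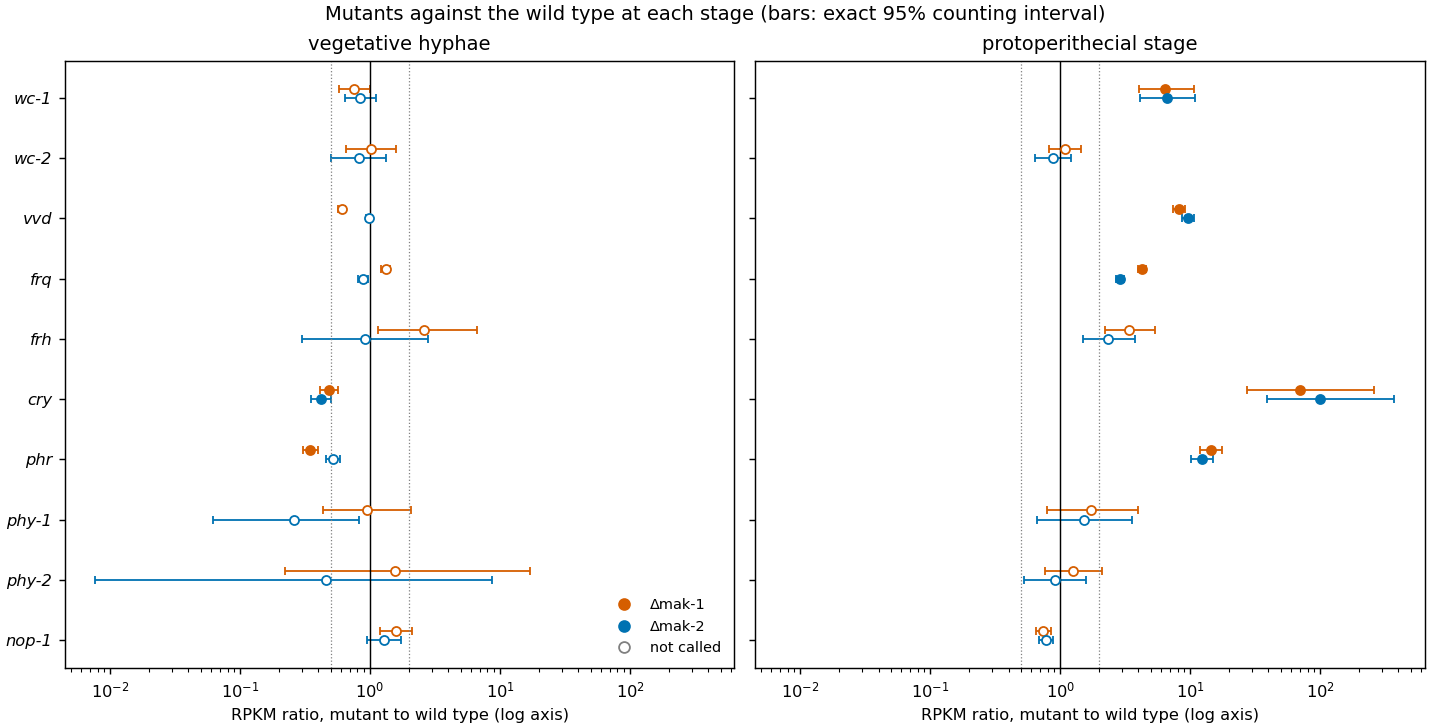
RPKM ratio of Δ*mak-1* (orange) and Δ*mak-2* (blue) to the wild type (log axis) for the 10 genes in vegetative hyphae, left, and at the protoperithecial stage, right, with bars for the exact 95% counting interval, dotted lines at 0.5 and 2, and filled points for called genes. Filled points lie below 0.5 for *cry* and *phr* on the left, and between 2.89 and 101 for *wc-1*, *vvd*, *frq*, *cry* and *phr* on the right.

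In vegetative hyphae 0 of the 10 genes were raised in Δ*mak-1*, where 11.4% of all entries were raised, and 2 were lowered (*cry* and *phr*), where 4.19% were lowered. In Δ*mak-2* 0 were raised, where 4.14% of all entries were raised, and 1 was lowered (*cry*), where 3.65% were lowered. *vvd* was at 0.603 of the wild type in Δ*mak-1* (0.569 to 0.638) and at 0.980 in Δ*mak-2* (0.930 to 1.03). Entries above 10 RPKM had a median log2 ratio of 0.41 in Δ*mak-1* and 0.11 in Δ*mak-2*, and with libraries scaled by the median of ratios *vvd* in Δ*mak-1* came to 0.459 and *phr* in Δ*mak-2* to 0.490, both then lowered. The share of all entries lowered in Δ*mak-1* was then 7.86% and the share raised 5.57%. The ratio of *frq* in Δ*mak-1* was 1.32 with mapped reads, 1.0 with the median of ratios and 0.885 with β-tubulin, so it has no direction that is common to the scalings.

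The mutants were also set against each other. At the protoperithecial stage *frq* was 1.47-fold and *frh* 1.45-fold higher in Δ*mak-1* than in Δ*mak-2*, *cry* was at 0.698 (0.600 to 0.810) and *vvd* at 0.850 (0.813 to 0.890). In vegetative hyphae *frq* was 1.5-fold higher in Δ*mak-1* (1.39 to 1.62), while *vvd* was at 0.615 (0.581 to 0.651) and *phr* at 0.673 (0.581 to 0.779). None of these passed the 2-fold line, and the quotients beyond it, 2.88 for *frh*, 3.63 for *phy-1* and 3.41 for *phy-2* in vegetative hyphae, came from at most 27 reads.

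A pattern in which the protoperithecial wild type was the lowest of the 6 libraries held for 5 of the 7 genes above 10 RPKM in at least 1 library (*wc-1*, *vvd*, *frq*, *cry* and *phr*), and for 10.2% of the 6732 entries at that level. It held by more than 2-fold against the next library for 4 of them, all but *frq*, and for 1.44% of entries. The next lowest library was 5.01 times higher for *wc-1*, 5.07 times for *vvd*, 55 times for *cry* and 3.01 times for *phr*. This pattern was chosen after the values were seen, and it rests on 1 library.

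The profiles of some of the 10 genes ran close together, as a Pearson correlation of log2(RPKM + 1) over the 6 libraries describes. It was 0.990 between *wc-1* and *vvd*, 0.990 between *wc-1* and *cry*, and 0.969 between *vvd* and *cry*, and the points share 1 library, the protoperithecial wild type, that was the lowest for all 3 genes. Among 5615 genes with more than a 2-fold range and above 10 RPKM, those nearest to *wc-1* were *al-2* at 0.991, *vvd* and *cry*. *al-2*, which encodes phytoene synthase of carotenoid synthesis, was also nearest to *cry* at 0.996. It fell from 3479 RPKM in vegetative to 67.0 in protoperithecial wild type and was at 1720 and 2609 RPKM in protoperithecial Δ*mak-1* and protoperithecial Δ*mak-2*. NCU00584 came next for *cry* at 0.995. With the median of ratios NCU06125 was nearest to *cry* at 0.999, before *al-2* at 0.997. The genes nearest to *wc-1* were then *al-2*, NCU00584 and NCU07995.

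In the RefSeq annotation of assembly NC12, NCU00584 and *al-2* lie 2 and 3 genes from *cry* on the same chromosome. NCU00584 went from 650 to 79.0 RPKM between stages in the wild type and stood at 506 and 496 RPKM in protoperithecial Δ*mak-1* and protoperithecial Δ*mak-2*. The gene between it and *cry*, NCU00583, had at most 4.65 RPKM, and the next gene on the other side, NCU00581, was at 99.9, 113 and 65.6 RPKM in protoperithecial wild type, Δ*mak-1* and Δ*mak-2*, where *cry* differed by 70.2-fold and 101-fold.

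The other genes had different companions. For *vvd* they were *wc-1*, NCU07995 at 0.983 and *al-2* at 0.981. The closest profiles to *phr* were those of *crf5-1* (NCU06306) at 0.991, NCU06915 at 0.990 and NCU00360 at 0.971. Nearest to *frq* were NCU02087 at 0.994, NCU08622 at 0.993 and NCU07994 at 0.985. *wc-2* and *nop-1* had 590 and 800 genes above 0.95, against 9 for *wc-1*, but with the median of ratios the number was 196 for *nop-1* and 22 for *wc-1*, and *wc-2* no longer had a 2-fold range. Their closest genes were NCU09974 at 0.998, NCU09292 and NCU06929 for *wc-2*, and NCU00362 at 0.9996, NCU02025 and NCU00168 for *nop-1*. Of the 21 genes named by this measure, 11 were named again when libraries were scaled by the median of ratios.

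Regulators that respond early to light were taken as a separate list. Among *sub-1*, *csp-1*, *adv-1*, *sah-1* and *vad-3*, which encode transcription factors, 2 of 5 were lowered between stages in the wild type. Of all entries 7.27% were lowered there. In protoperithecial Δ*mak-1* 2 of the 5 were raised, where 7.84% of all entries were raised. In protoperithecial Δ*mak-2* 1 was raised, where 6.07% of all entries were raised. Other scalings, tried after seeing the data, added *vad-3* to the lowered genes of the wild type and left the protoperithecial counts of the mutants as they were. *csp-1*, the repressor that passes clock time on to metabolic genes, had 1408 RPKM in vegetative and 206 in protoperithecial wild type, and 1313 and 977 RPKM in protoperithecial Δ*mak-1* and protoperithecial Δ*mak-2*. *sah-1* went from 197 to 31.8 RPKM between stages in the wild type, and stood at 25.9 and 43.4 RPKM in the protoperithecial mutants. The list medians at the protoperithecial stage were 1.14 in Δ*mak-1* and 1.36 in Δ*mak-2*. In vegetative hyphae 0 of 5 were raised and 1 lowered in Δ*mak-1*, and 1 was raised and 2 lowered in Δ*mak-2*. Of all entries 11.4% were raised and 4.19% lowered in vegetative Δ*mak-1*, and 4.14% and 3.65% in vegetative Δ*mak-2*. With β-tubulin 2 of the 5 genes were lowered in Δ*mak-1* and 0 in Δ*mak-2*.

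Of 10 downstream genes known to respond to light (*al-1*, *al-2*, *al-3*, *cao-2*, *bli-3*, *bli-4*, *con-6*, *con-10*, *ccg-1* and *eas*), 6 were lowered and 3 raised between stages in the wild type, with a median ratio of 0.295. Of all entries 7.27% were lowered and 32.7% raised, so 3 of 10 raised is near that share. Under each other scaling 7 of the 10 were lowered and 1 raised. At the protoperithecial stage 8 of the 10 were raised and 1 lowered in each mutant. Of all entries 7.84% were raised and 5.95% lowered in Δ*mak-1*, and 6.07% and 7.59% in Δ*mak-2*. The median ratio of the 10 was 10.9 in Δ*mak-1* and 19.3 in Δ*mak-2*. The lowered gene was *ccg-1*, a clock-controlled gene, at 0.114 and 0.189 of the wild type. *bli-4*, a gene induced by blue light, had 1399 RPKM in vegetative and 11.6 in protoperithecial wild type and 246 and 226 RPKM in the protoperithecial mutants. In vegetative hyphae 7 were lowered and 1 raised in Δ*mak-1*, where each other scaling gave 9 lowered. In vegetative Δ*mak-2* 5 were lowered and 1 raised, where the scalings gave 3 to 7 lowered. Of all entries 4.19% were lowered and 11.4% raised in vegetative Δ*mak-1*, and 3.65% and 4.14% in vegetative Δ*mak-2*.

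Genes for proteins that modify or degrade FRQ formed another list. For the casein kinase genes *ck-1a*, *cka* and *ckb-1*, the checkpoint kinase gene *prd-4* and the F-box gene *fwd-1*, 0 of 5 were called in any comparison of a mutant with the wild type, where between 3.65% and 11.4% of all entries were called in 1 direction, so a count of 0 is near that background, and the list medians were 1.05 in protoperithecial Δ*mak-1* and 1.01 in protoperithecial Δ*mak-2*. *ck-1a*, whose product phosphorylates FRQ, was at 739 RPKM in protoperithecial wild type, 913 in Δ*mak-1* and 739 in Δ*mak-2*. Between stages in the wild type *ckb-1* was raised 3.60-fold and *prd-4* was lowered to 0.361.

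The annotation columns of the deposited table gave 3 wider lists, taken without the 10 genes. Of 21 genes annotated to regulation of circadian rhythm, 5 of them among those already named, 1 was raised and 1 lowered in protoperithecial Δ*mak-1* and 0 were called in protoperithecial Δ*mak-2*. Of all entries 7.84% were raised and 5.95% lowered in protoperithecial Δ*mak-1*, and 6.07% and 7.59% in protoperithecial Δ*mak-2*. The counts of these 21 genes are near those shares. Between stages 11 of the 21 were raised in the wild type, 4 in Δ*mak-1* and 10 in Δ*mak-2*. The shares of all entries raised were 32.7%, 23.1% and 28.5%. All 5 genes annotated to response to blue light had reads. The 4 already named, *al-1*, *al-2*, *al-3* and *con-10*, were the 4 raised in each protoperithecial mutant. This list thus adds no raised gene to the light-responsive genes above. Of 325 genes annotated to response to light stimulus, 95 were raised and 32 lowered in protoperithecial Δ*mak-1*, and 93 were raised and 35 lowered in protoperithecial Δ*mak-2*. The median ratios of these 325 genes were 1.21 and 1.29. In vegetative hyphae 31 of the 325 were raised and 60 lowered in Δ*mak-1*, and 17 were raised and 44 lowered in Δ*mak-2*. Of all entries 11.4% were raised and 4.19% lowered in vegetative Δ*mak-1*, and 4.14% and 3.65% in vegetative Δ*mak-2*.

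**Figure D4:**
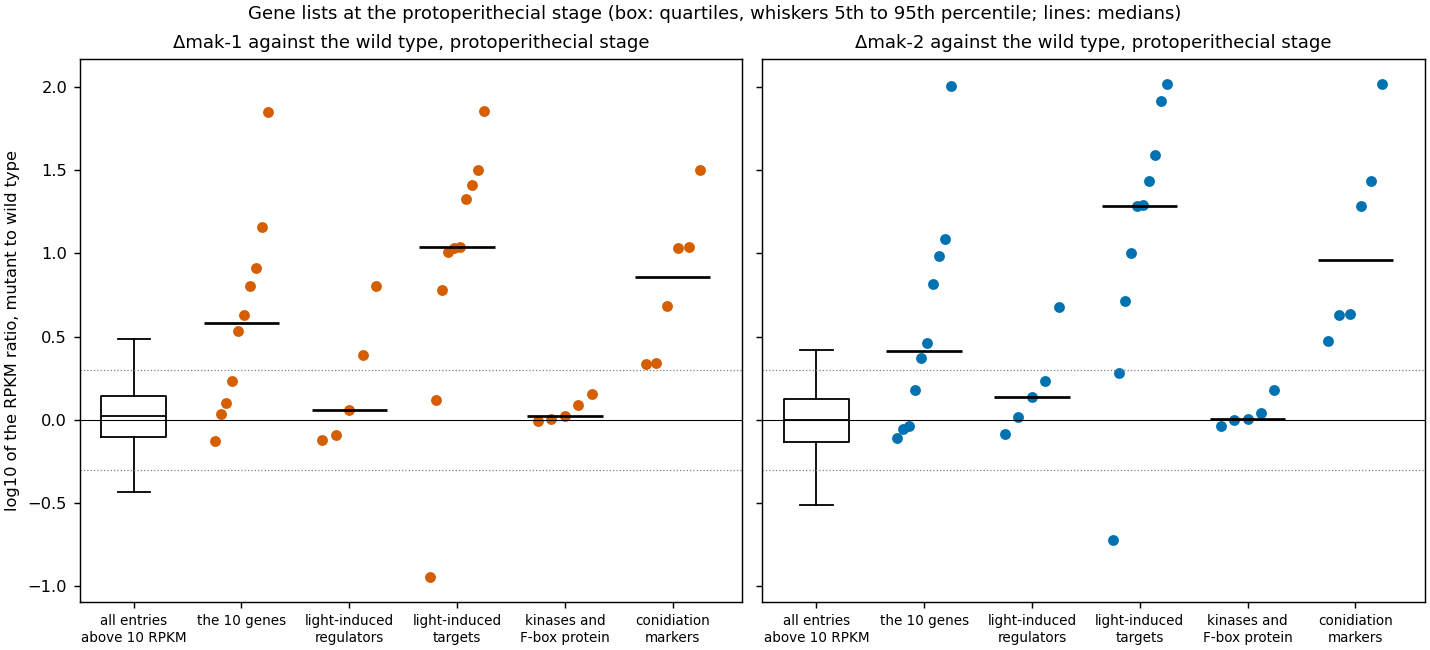
log10 of the RPKM ratio to the wild type at the protoperithecial stage in Δ*mak-1* (left) and Δ*mak-2* (right), with 1 point per gene, horizontal bars for list medians, and a box for all entries above 10 RPKM (quartiles, whiskers from the 5th to the 95th percentile). Dotted lines mark 2-fold. The kinases and the F-box gene lie inside the dotted lines in both mutants, and 5 of the 10 photoreceptor and clock genes lie above the upper line with a call.

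Markers of conidiation were also raised in the protoperithecial mutants, in which 5 of the 10 photoreceptor and clock genes were raised. By contrast, the paper reports that both deletion strains made fewer conidia than the wild type on Vogel's agar, in continuous light. The protoperithecial libraries came from crossing medium in the dark, and whether the raised markers went with more conidia there was not tested. Of *con-6*, *con-8*, *con-10*, *eas*, *fl* and *acon-3*, 5 of 6 were raised in protoperithecial Δ*mak-1* and 6 of 6 in protoperithecial Δ*mak-2*. Of all entries 7.84% were raised and 5.95% lowered in protoperithecial Δ*mak-1*, and 6.07% and 7.59% in protoperithecial Δ*mak-2*. The summed level of the 6 markers was 916 RPKM in the wild type, 15821 in Δ*mak-1* and 17072 in Δ*mak-2*. Of the mutant sums *con-10* gave 12747 RPKM in Δ*mak-1* and 7703 in Δ*mak-2*, and *eas* gave 667 and 6465. None of the 6 markers was at 0 in any library, and *con-6*, *con-10* and *eas* are also among the light-responsive genes above. In vegetative hyphae the sum was 2362 RPKM in the wild type, 2674 in Δ*mak-1* and 48852 in Δ*mak-2*, of which *eas* gave 47036. There 1 of the 6 markers was raised and 3 (*con-6*, *con-8* and *con-10*) lowered in Δ*mak-1*. In vegetative Δ*mak-2* 2 were raised and 2 lowered, with *con-6* at 0.237 and *con-10* at 0.128 of the wild type. Of all entries 11.4% were raised and 4.19% lowered in vegetative Δ*mak-1*, and 4.14% and 3.65% in vegetative Δ*mak-2*. The 3 protoperithecial markers were lowered in both mutants at the protoperithecial stage, with *poi-2* at 2072 RPKM in the wild type and 3.84 and 2.51 in Δ*mak-1* and in Δ*mak-2*. Whether either marker change reflects cell makeup, and what part that has in the values of the 10 genes, was not tested.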

How the data were processed

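The authors deposited 1 RPKM value per gene and library, with RNA of 3 repeats mixed per library and sequenced single-end. The submitters' processing notes name CASAVA 1.8, while an aligner, counter or genome build is not given in the sources used. Deposited ratio columns hold the authors' comparisons and were not used. Reads were recovered from the common step of the RPKM values of a gene, and were whole for 8913 of 8913 entries above 0 in at least 2 libraries (relative tolerance 4e-09, absolute 1e-06). Gene model lengths were recovered for 8906 entries, and 85.3% were multiples of 3. The recovery was tested on simulated data. Names and neighbours came from RefSeq assembly NC12, to which 9161 entries were matched.

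Ratios of RPKM were given exact (Clopper-Pearson) 95% counting intervals, and no test was run, since each condition had 1 library. A call needed a ratio above 2 or below 0.5 and more than 10 RPKM in at least 1 of the libraries compared. The share called was computed over all entries with a read in either library. All 10 genes are named, with fixed lists of light-induced regulators and targets, FRQ kinases and F-box gene, markers, and the 3 genes closest in profile to each gene with over 10 RPKM and a 2-fold range. Members and lists were chosen with earlier results of these data known. Alternatives (for the lists, chosen after seeing the data) were scaling by the median of ratios, the upper quartile or β-tubulin, other fold and RPKM thresholds, 1 RPKM added, and calls on the whole interval. Promoter motifs and protein identities were not analysed here. Scripts ran under Python 3.11.15 with scipy 1.17.1 for intervals, pandas 2.3.3 and numpy 2.4.6 for tables, and matplotlib 3.10.9 for plots.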

Additional observations from a re-analysis of the deposited data

Results flagged for a closer look

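For 4 genes the stage ratio in the wild type and in a mutant lay on opposite sides of 1, each with a counting interval that did not reach 1. With 1 library per condition the difference between strains was not tested. For *phr* the ratio was 0.115 in the wild type, 4.78 in Δ*mak-1* and 2.74 in Δ*mak-2*. For *frq* it was 0.748 in the wild type, 2.42 in Δ*mak-1* and 2.46 in Δ*mak-2*. Both genes kept these directions under the 3 other scalings. For *vvd* it was 0.119 in the wild type, 1.62 in Δ*mak-1* and 1.17 in Δ*mak-2*, but the ratio in Δ*mak-2* was 0.694 with the median of ratios, 0.738 with the upper quartile and 0.672 with β-tubulin, so its direction there depends on the scaling. For *cry* it was 0.00765 in the wild type and 1.83 in Δ*mak-2*, where the other scalings gave 1.05 to 1.16.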

How the results depend on the processing

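No paired analysis was possible because each condition has 1 library and the labels carry no replicate numbers, and for the same reason no library could be left out. At the protoperithecial stage the 5 genes raised in each mutant came to 4 to 6 over the alternatives run, and the 4 genes lowered between stages in the wild type to 3 to 5. Genes raised between stages in the wild type went from 1 to 2 with a fold of 1.5 and to 3 with a minimum of 1 RPKM. Genes raised between stages in Δ*mak-1* went from 3 to 1 with the median of ratios, the upper quartile or a fold of 3, and to 5 with a fold of 1.5 or a minimum of 1 RPKM. In Δ*mak-2* they went from 3 to 0 with the median of ratios or β-tubulin, to 1 with the upper quartile or a fold of 3, to 5 with a fold of 1.5 and to 6 with a minimum of 1 RPKM. In vegetative Δ*mak-1* the raised genes went from 0 to 1 with a fold of 1.5 or a minimum of 1 RPKM, and the lowered genes from 2 to 0 with a fold of 3 and to 1 where the whole interval had to pass. In vegetative Δ*mak-2* the lowered genes went from 1 to 2 with the median of ratios, the upper quartile, a fold of 1.5 or a minimum of 1 RPKM, and to 0 with a fold of 3 or the whole interval. A minimum of 20 RPKM or 1 RPKM added left every count within 1.5 times. Of 70 single ratios, 26 moved beyond their counting interval with the median of ratios, 24 with the upper quartile, 21 with β-tubulin and 5 with 1 RPKM added. The causes were not tested. Depth limits *phy-1* and *phy-2*, with at most 42 reads in a library, and *cry* in the protoperithecial wild type, with 4.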
